A study of Mus musculus with 18 samples.

Results

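The genes described here are 10 genes of the pigment cell, taken from all 55357 genes of the deposited expression table by their gene symbols: Tyr, Tyrp1, Dct, Pmel, Mlana, Slc45a2, Oca2, Mitf, Sox10 and Kit. They were read in bulk RNA sequencing of back skin from 18 FVB mice aged 6 months, 1 library per mouse and 6 mice per group. C-IKKa mice carry exogenous IKKα in the cytoplasm of keratinocytes, N-IKKa mice carry it in the nucleus of keratinocytes, and WT mice carry no transgene. IKKα belongs to the kinases that switch on NF-kB, and keratinocytes also need it to mature. The labels used here do not name the promoter of either transgene or the number of founder lines. Mice were numbered 1 to 6 in WT, 7 to 12 in N-IKKa and 13 to 18 in C-IKKa. All groups share the FVB background, which is albino, so the skin of every mouse here lacks melanin.

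Melanocytes of mouse hair skin sit in the follicle and make pigment while a hair grows. They pack melanin in melanosomes, organelles related to lysosomes, and hand these to the keratinocytes that build the hair shaft. The enzymes are tyrosinase (Tyr), tyrosinase-related protein (Tyrp1) and dopachrome tautomerase (Dct); Pmel forms the fibrils on which melanin is laid down, and Mlana is a melanosome membrane protein. Slc45a2 and Oca2 are membrane transporters that set the ion balance and acidity of melanosomes. Mitf is the transcription factor that drives most of these genes, Sox10 is a neural crest factor that acts upstream of Mitf, and Kit is the receptor through which melanocytes are kept alive and guided. The albino allele of Tyr in FVB mice makes an inactive enzyme, and albino melanocytes are present without pigment.

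The stretches just before the start of 3 enzyme genes are shown because these genes moved together across libraries and because they carry the letters that Mitf is known to bind. They are RefSeq sequences of the mouse build GRCm38.p6, 250 bases before the annotated start of each gene, 5′ to 3′ on the gene's strand. Capitals mark CATGTG, or CACATG where it lies on the opposite strand.
Tyr chr7:87493513-87493762, minus strand: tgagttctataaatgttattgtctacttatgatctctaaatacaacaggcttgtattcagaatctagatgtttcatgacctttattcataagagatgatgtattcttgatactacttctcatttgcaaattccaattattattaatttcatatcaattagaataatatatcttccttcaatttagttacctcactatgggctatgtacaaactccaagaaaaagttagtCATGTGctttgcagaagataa
Tyrp1 chr4:80833963-80834212, plus strand: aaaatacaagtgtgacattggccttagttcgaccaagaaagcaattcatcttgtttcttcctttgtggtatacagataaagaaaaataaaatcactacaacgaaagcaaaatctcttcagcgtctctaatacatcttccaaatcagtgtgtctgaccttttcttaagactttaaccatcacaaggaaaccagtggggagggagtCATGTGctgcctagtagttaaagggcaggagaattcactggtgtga
Dct chr14:118052247-118052496, minus strand: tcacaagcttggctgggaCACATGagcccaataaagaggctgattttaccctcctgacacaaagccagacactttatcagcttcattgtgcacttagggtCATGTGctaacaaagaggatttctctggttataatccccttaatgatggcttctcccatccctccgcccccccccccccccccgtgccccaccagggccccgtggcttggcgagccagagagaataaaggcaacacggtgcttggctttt
In each of the 3 sequences CATGTG lies inside the longer run GTCATGTGCT, part of the element called the M box. That run was picked as the longest that the 3 share, so its presence in them is no finding. It began 23 bases before the start in Tyr, 48 in Tyrp1 and 152 in Dct. Searched on both strands, GTCATGTGCT was found in 51 of 32851 mouse windows of the same length, or 0.155%, and CATGTG in 12.3%. RefSeq entries were at hand for 6 of the 10 genes (Tyr, Tyrp1, Dct, Kit, Mitf and Oca2). Oca2 was the fourth gene with CATGTG, on the opposite strand 186 bases before its start and outside the longer run. A match of letters is a description and not a measured binding site, and the part of Mitf in the levels of these genes was not tested.

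Levels are the deposited normalized counts, which are gene counts divided by 1 size factor per library. Libraries held 11.1 to 15.7 M counted reads, and a listed 0 allows up to 3 reads, or 2.45 to 3.61 normalized counts. Such limits cover counting error only. Krt5, a keratin of basal keratinocytes, ran from 19353 to 35765 normalized counts across all libraries, as a check of the labelled tissue. A list of 25 tested hair shaft and inner root sheath genes split the libraries. Its mean log2(normalized count + 1) was 10.0 to 12.3 in 6 libraries (C-IKKa 14, N-IKKa 8, 9 and 11, WT 1 and 4), called growing-hair libraries below, and 2.01 to 5.22 in the other 12. By the Y-linked gene Ddx3y, 8 libraries were read as male, all of them among the other 12, and the 6 growing-hair libraries were all read as female. The other 12 held 4 female libraries (WT 2 and 5, N-IKKa 10 and C-IKKa 18). Hair growth and sex cannot be told apart where growing-hair libraries are set against male ones. The growing-hair libraries were set apart by measured hair genes, so their comparison with the other 12 is given as ranges with no test.

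The 3 enzymes were far higher in growing-hair skin than in the other libraries. Tyr (ENSMUSG00000004651.7), which catalyses the first step of melanin synthesis, ran from 555 in C-IKKa 14 through a median of 1782 to 2624 normalized counts in N-IKKa 9 among the growing-hair libraries. In the other 12 libraries Tyr ran from 8.34 in WT 3 through a median of 18.0 to 193 in C-IKKa 18. The lowest growing-hair library thus held 2.88 times the highest other library. Tyrp1, which acts late in the making of brown-black eumelanin, had 891 to 3275 (median 2500) in growing-hair libraries and 37.4 to 531 (median 51.2) in the others. Dct, which acts between Tyr and Tyrp1 in the same pathway, had 1943 to 6424 (median 5052) against 173 to 1064 (median 289). For both genes WT 4 was the highest of all libraries and C-IKKa 18 the highest of the other 12, with no overlap between the sets. In bulk skin, fewer melanocytes and less RNA per melanocyte cannot be told apart.

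Of the 2 melanosome proteins, Pmel separated the sets and Mlana did not. Pmel, the fibril protein, had 428 to 1441 normalized counts (median 1223) in growing-hair libraries and 58.4 to 316 (median 113) in the others. Mlana, known in human melanoma as MART-1, had 79.6 to 297 (median 209) in growing-hair libraries and 6.16 to 106 (median 49.3) in the others. Here 5 of 6 growing-hair libraries lay above all others, and WT 1, at 79.6, lay below N-IKKa 12 and WT 6.

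The transporters had the lowest floor outside growing hair. Slc45a2, whose loss lightens coat and skin, had 163 to 1126 normalized counts (median 557) in growing-hair libraries. Its values in the other 12 were 0 to 39.9 (median 2.71), and a median of this size is a few reads. Oca2, the gene of the pink-eyed dilution coat colour in mice, had 56.3 to 384 (median 233) in growing-hair libraries and was listed at 0 in 9 of the other 12. The 3 that were not at 0 were C-IKKa 18 with 23.8, WT 6 with 4.81 and N-IKKa 12 with 1.03. For Oca2 a value of 0 means at most a few reads at this depth and not that the gene is silent.

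Mitf, Sox10 and Kit differed less between the sets than most of the other 7 genes. Mitf had 2001 to 4074 normalized counts (median 2842) in growing-hair libraries and 1430 to 2164 (median 1760) in the others, with 5 of 6 growing-hair libraries above all others and WT 1 below C-IKKa 16 and 17. Sox10 had 127 to 222 (median 168) against 79.5 to 191 (median 112), and of the 6 only N-IKKa 9 lay above all of the other 12. Kit had 655 to 1243 (median 952) in growing-hair libraries and 200 to 525 (median 292) in the others, without overlap.

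In all, 7 of the 10 genes (Tyr, Tyrp1, Dct, Pmel, Slc45a2, Oca2 and Kit) had every growing-hair library above every other library, against 8.45% of 17667 tested genes. The reverse order held for 0 of 10, against 5.25% of tested genes. The difference of the 2 set medians on the log2(normalized count + 1) scale ran from 0.58 for Sox10 to 7.87 for Oca2, with a median of 3.77 over the 10 genes. Over all tested genes the median difference was −0.01, and 95% of genes lay between −1.54 and 2.25. Against the 4 other libraries read as female alone, all 6 growing-hair libraries were higher in 9 of 10 genes (all but Sox10), against 13.0% of tested genes. All 10 genes passed the filter on low values (at least 10 normalized counts in at least 6 libraries). Slc45a2 and Oca2 passed it only through the growing-hair libraries, since 4 and 1 of the other 12 libraries reached 10, so these genes had to differ between the sets.

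**Figure D1:**
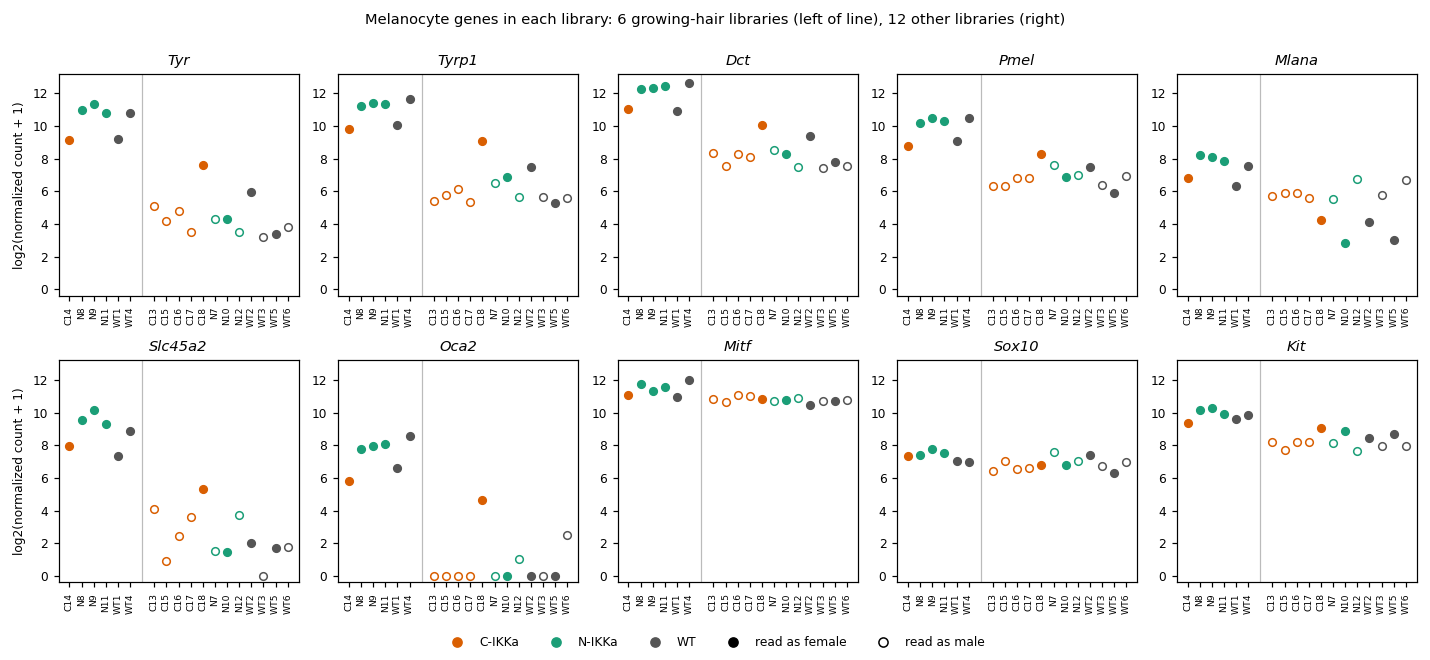
Level of each of the 10 genes in each library, as log2(normalized count + 1) on the vertical axis, with the 6 growing-hair libraries left of the line and the other 12 right of it. Colours mark genotype and open circles mark libraries read as male; Tyr, Tyrp1, Dct, Pmel, Slc45a2, Oca2 and Kit show no overlap between the sets, while Mlana, Mitf and Sox10 do.

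The growing-hair libraries were not alike. WT 1 and C-IKKa 14 had the lowest value of the 6 in 9 of 10 genes (WT 1 in Dct, Mlana, Mitf and Slc45a2, C-IKKa 14 in Tyr, Tyrp1, Pmel, Kit and Oca2), and WT 4 was lowest in Sox10. N-IKKa 9 was highest in Tyr, Pmel, Sox10, Kit and Slc45a2, and WT 4 in Tyrp1, Dct, Mitf and Oca2. N-IKKa 9 had a hair list mean of 10.04, at the low end of the 6, between C-IKKa 14 at 10.01 and WT 1 at 11.00.

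C-IKKa 18 held the highest value of the other 12 libraries in 7 of 10 genes (Tyr, Tyrp1, Dct, Pmel, Kit, Slc45a2 and Oca2), and was singled out after its values were seen. It had 193 normalized counts of Tyr, 531 of Tyrp1, 1064 of Dct and 23.8 of Oca2. It was also the highest of the 12 in the hair list, with a list mean of 5.22 against 2.01 to 4.28 in the other 11, and had 2152 normalized counts of Krt71, an inner root sheath keratin. Without C-IKKa 18, the lowest growing-hair library held 9.17 times the highest other library in Tyr, 5.02 times in Tyrp1, 2.95 times in Dct and 11.7 times in Oca2. WT 2 came next in Tyr (60.5), Tyrp1 (177) and Dct (659). Unlike C-IKKa 18, WT 2 had a hair list sum of 442 normalized counts, within the 392 to 1509 of the other libraries without C-IKKa 18.

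Relative to Dct in the same library, the genes fell into 3 sorts. Tyr, Slc45a2 and Oca2 were higher per Dct in growing-hair skin: the Tyr to Dct ratio of normalized counts was 0.265 to 0.508 in growing-hair libraries and 0.0378 to 0.181 in the others, and the Slc45a2 to Dct ratio 0.0741 to 0.218 against 0 to 0.0678. The Oca2 to Dct ratio was 0.0269 to 0.0597 against 0 to 0.0260, a narrow separation that rests on a few reads in WT 6. Slc45a2 was also separated narrowly, by WT 4 at 0.0741 and N-IKKa 12 at 0.0678, the latter from 12.3 normalized counts of Slc45a2. Slc45a2 and Oca2 passed the filter on low values only through the growing-hair libraries, so their higher ratios are no support of their own. Tyrp1, Pmel and Mlana overlapped between the sets in this ratio, with medians of 0.498, 0.234 and 0.0474 in growing-hair libraries and 0.261, 0.392 and 0.167 in the others. Mitf, Sox10 and Kit were lower per Dct in growing-hair skin, at 0.502 to 1.05, 0.0197 to 0.0787 and 0.143 to 0.400, against 1.75 to 10.6, 0.105 to 0.721 and 0.493 to 1.82. Mitf, Sox10 and Kit are also made by other cells of skin, and how much of their level comes from melanocytes was not tested.

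**Figure D2:**
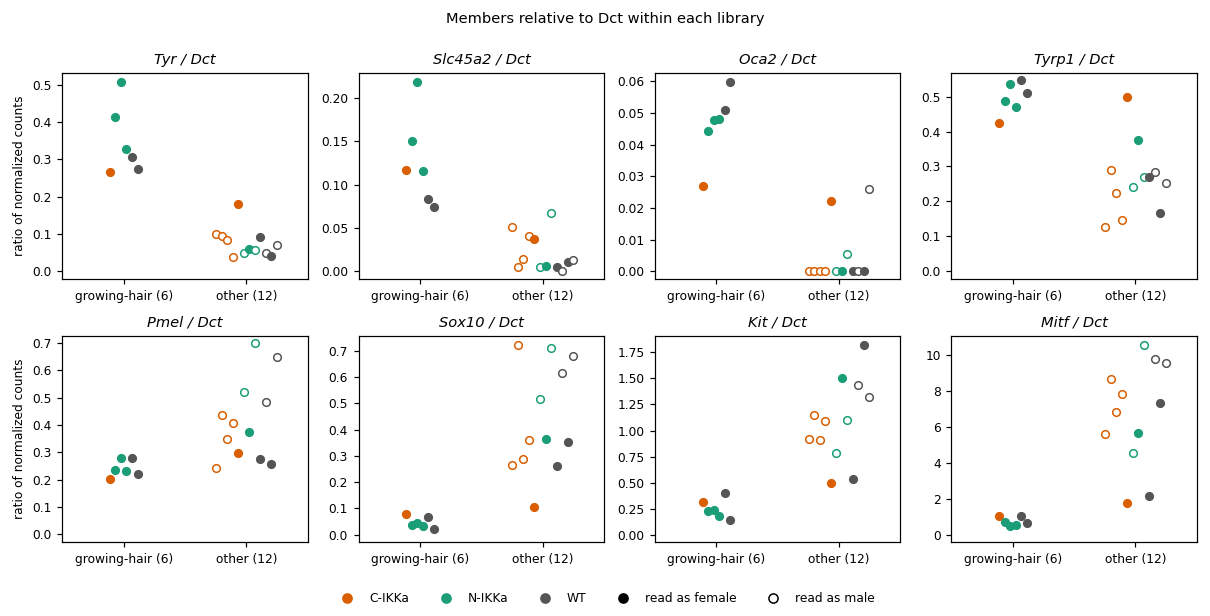
Ratio of each gene's normalized count to that of Dct in the same library, on linear axes, for the 6 growing-hair libraries and the other 12. Tyr, Slc45a2 and Oca2 lie higher in growing-hair libraries, narrowly for Slc45a2 and Oca2. Mitf, Sox10 and Kit lie lower, and Tyrp1 and Pmel overlap.

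Levels of different genes were compared per kilobase of annotated exon length (GENCODE vM21). In growing-hair libraries the order by median was Tyrp1 (884 normalized counts per kb), Dct (857), Pmel (534), Mitf (459), Tyr (251), Mlana (198), Slc45a2 (187), Kit (107), Oca2 (58.8) and Sox10 (55.1). Neighbours in this order had overlapping ranges, for example 315 to 1158 for Tyrp1 and 330 to 1090 for Dct. In the other 12 libraries Mitf came first (284), ahead of Pmel (49.4), Dct (48.9), Mlana (46.7), Sox10 (36.7) and Kit (32.7). Tyrp1 (18.1), Tyr (2.53), Slc45a2 (0.910) and Oca2 (0) came last there. Mitf, at 231 to 349 per kb, did not overlap any other of the 10 genes in those libraries. Exon length was taken over all transcripts, so a gene with long untranslated ends that few reads cover is set too low.

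Variation that remained within the sets was shared by the pigment enzymes and Pmel. After the mean of its own set was subtracted from each log2 value, the 6 pairs among Tyr, Tyrp1, Dct and Pmel had Pearson's r of 0.78 to 0.93 over 18 libraries, with Tyr and Dct the closest. Mlana with the other 9 genes gave −0.57 to 0.39, with Kit the lowest, and Sox10 with the other 9 gave −0.27 to 0.50. These values share library and size factor and are given as a description. They include C-IKKa 18, the highest of the other libraries in Tyr, Tyrp1, Dct and Pmel, and no r without it is given. By the same measure, the tested genes outside the 10 most like Tyr were Mex3a (0.91), the transcription factor gene Mycn (0.91) and Gli2 of the Hedgehog pathway (0.88), and those most like Dct were Troap (0.88), Trpm1 (0.88) and the centromere histone gene Cenpa (0.87). Trpm1, a cation channel gene that Mitf drives in melanocytes, was the 1 named neighbour that is itself on the list of other pigment cell genes. The genes most like Sox10 were Mpp2 (0.84), Fbf1 (0.83) and Klrg2 (0.82), and those most like Kit were Septin11 (0.92), Fap (0.87) and Marcks (0.86).

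Of 16 other pigment cell genes 15 were tested, and 7 had every growing-hair library above every other library, against 8.45% of tested genes. Of the 7, Mc1r, Gpr143 and Tspan10 each reached 10 normalized counts in 1 of the other 12 libraries, so these 3 passed the filter only through the growing-hair libraries and had to differ. Mc1r, the melanocortin receptor that switches melanocytes to eumelanin, had 101 to 802 normalized counts in growing-hair libraries and 0 to 21.9 in the others. Gpr143, a melanosome receptor lost in ocular albinism, had 18.8 to 110 against 0 to 10.5, and Trpm1 had 699 to 2617 against 22.0 to 222. The tetraspanin gene Tspan10 had 35.1 to 118 against 0 to 10.2. The remaining 3 of the 7 were the melanosome exchanger Slc24a5, the cystine transporter Slc7a11 and the transcription factor Tfap2a, the last also a keratinocyte gene.

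The general machinery that builds melanosomes held few genes without overlap between the sets, as did all tested genes. Of 20 genes of the BLOC, HPS and AP-3 complexes and their partners, which act on lysosome-related organelles in many cell types, 19 were tested. None had every growing-hair library above every other library, against 8.45% of tested genes, and 1 lay below, against 5.25%. It was the BLOC subunit gene Snapin with 726 to 942 normalized counts against 992 to 1450. The median difference was 0.08, against −0.01 over all tested genes. Hps6 was listed at 0 in all 18 libraries. So was Tchh, listed with the hair shaft and inner root sheath genes, growing-hair libraries included. Why such rows hold only 0 was not tested.

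Genes listed for signalling to melanocytes were mixed, and which cells of the skin made them was not tested. Of 6 tested signal genes, 3 had every growing-hair library above every other library, against 8.45% of tested genes, and 0 had the reverse. Kitl, the ligand of Kit, had 1921 to 3857 normalized counts in growing-hair libraries and 933 to 1669 in the others. Corin, a protease of the dermal papilla that modifies coat colour, had 130 to 337 against 11.1 to 81.7. Atrn, needed for agouti signalling, was separated narrowly, at 1922 to 3251 against 1346 to 1903. N-IKKa 9, the library with the most Kit, also had the most Kitl at 3857. Edn3, a ligand of the melanocyte receptor Ednrb, overlapped narrowly at 75.3 to 598 against 25.6 to 93.1, with N-IKKa 9 again the highest. Pomc, the precursor of melanocortins, was listed between 0 and 3.02 in all libraries.

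Mlana differed from the other 9 genes in the libraries without growing hair, where libraries read as male were higher. In the 8 male libraries of the 12 Mlana had 45.2 to 106 normalized counts, and in the 4 female libraries 6.16 to 18.1, so that the lowest male held 2.504 times the highest female. The 3 genotypes each showed this order: 47.1 to 58.8 in C-IKKa males and 18.1 in the 1 female, 45.2 and 106 in N-IKKa males and 6.16 in the 1 female, and 54.8 and 102 in WT males and 16.1 and 7.01 in WT females. Mlana was the 1 gene of 10 with males above females, against 1.74% of tested genes. Among the other pigment cell genes the 1 with that order was Gpnmb, a glycoprotein of melanosomes that macrophages also make, at 1473 to 2192 in males and 426 to 596 in females. In the 6 growing-hair libraries, all female, Mlana had 79.6 to 297 and Gpnmb 1100 to 4338.

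Kit had the opposite order in the same 12 libraries. Its 8 male libraries had 200 to 299.7 normalized counts and its 4 female libraries 352 to 525. Kit was the 1 gene of 10 with females above males, against 1.32% of tested genes. Mast cells also depend on Kit, and their markers were compared in the same libraries. Of 10 tested mast cell markers 6 were higher in all 4 female than in all 8 male libraries, among them the mast cell protease gene Cpa3 with 241 to 360 in males and 537 to 646 in females. The sum over the 12 mast cell markers was 1345 to 1767 in males and 2586 to 2915 in females. In the growing-hair libraries WT 4 and N-IKKa 8, 9 and 11 had sums of 739 to 894 with Kit at 919 to 1243, while C-IKKa 14 and WT 1 had sums of 2414 and 3498 with Kit at 655 and 778. None of the 10 markers had every growing-hair library above every other library, against 8.45% of tested genes. The part of mast cells in the Kit level was not tested.

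Sox10 is also a gene of Schwann cells, the glia of skin nerves. Of 12 tested Schwann cell markers, none had every growing-hair library above every other library and 1 had every one below, against 8.45% and 5.25% of tested genes. The 1 was the myelin gene Mbp, at 896 to 1773 normalized counts against 1867 to 2890. The sum over the 14 listed markers was 5248 to 7440 in growing-hair libraries and 7325 to 9841 in the others. Sox2, like Hps6 and Tchh, was listed at 0 in every library. The part of Schwann cells in the Sox10 level was not tested.

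**Figure D3:**
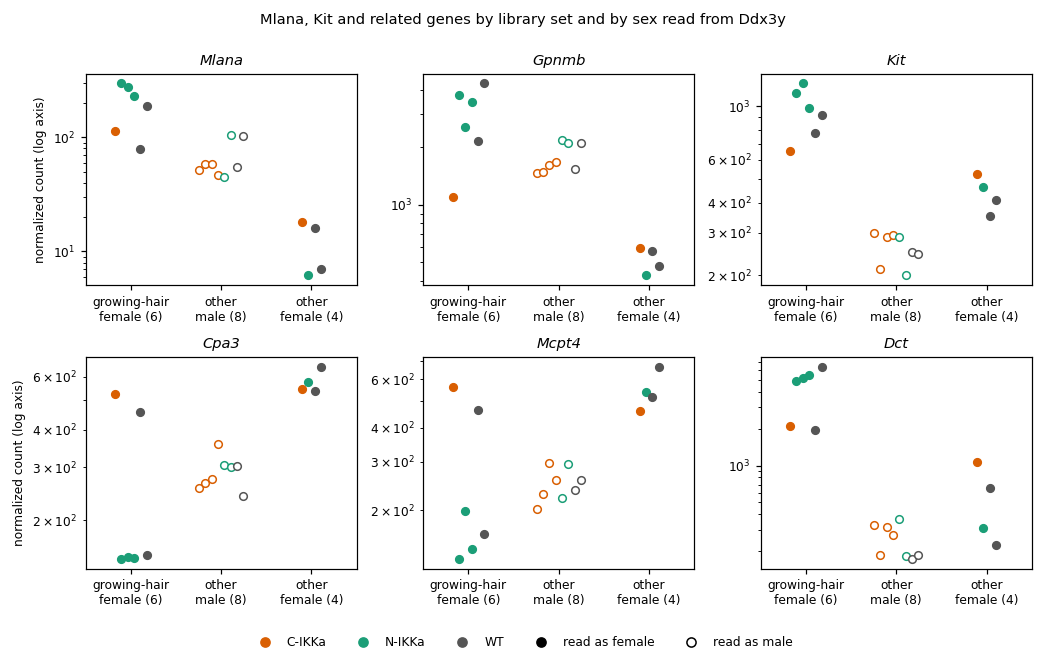
Normalized counts on log axes of Mlana, Gpnmb, Kit, the mast cell genes Cpa3 and Mcpt4, and Dct in the 6 growing-hair libraries, the 8 other libraries read as male and the 4 other libraries read as female. Mlana and Gpnmb lie higher in the 8 males than in the 4 females, and Kit, Cpa3 and Mcpt4 lie lower.

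C-IKKa mice were set against WT mice to ask whether cytoplasmic IKKα in keratinocytes goes with another level of melanocyte genes. Of the 10 genes, limma called 0 in C-IKKa against WT, while 0.345% of 17667 tested genes were called, all 61 of them higher. Tyr had 10.2, 29.9 and 555 normalized counts (lowest, median and highest of 6) in C-IKKa mice and 8.34, 36.9 and 1757 in WT mice. Dct had 185, 321 and 2095 in C-IKKa mice and 173, 442 and 6424 in WT mice. In both genes the groups overlapped over much of their range, and each group holds growing-hair and other libraries. The log2 fold change was −0.35 for Tyr (SE 1.68, 95% limits −3.88 to 3.19) and −0.40 for Dct (SE 1.05, 95% limits −2.61 to 1.81). The median over the 10 genes was −0.32, with 2 positive and 8 negative, and over all tested genes 0.00. The smallest limma adjusted p of the 10 was 0.985, and 0 of 10 had an unadjusted p below 0.05, against 5.73% of tested genes. edgeR and DESeq2 also called 0 of 10, against 0.311% and 0.838% of tested genes.

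The regulators gave the tightest limits. Mitf had 1600, 1987 and 2199 normalized counts in C-IKKa mice and 1430, 1735 and 4074 in WT mice, with a log2 fold change of −0.02 (SE 0.22, 95% limits −0.48 to 0.45). Sox10 gave −0.11 (SE 0.21, limits −0.54 to 0.33) and Kit −0.29 (SE 0.46, limits −1.27 to 0.68). For Slc45a2 (0.44, SE 1.84) and Oca2 (−1.22, SE 1.92) the limits spanned more than the rest, from −5.26 to 2.83 in Oca2. At this spread a change of several fold in the pigment enzymes or transporters was not detectable.

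N-IKKa mice were set against WT mice with the same question for nuclear IKKα. All 10 genes had positive log2 fold changes with a median of 0.998, and limma called 0, against 0.00566% of tested genes, or 1 gene. Tyr had 10.3, 913 and 2624 normalized counts in N-IKKa mice (lowest, median and highest of 6), against 8.34, 36.9 and 1757 in WT mice. Dct had 182, 2653 and 5521 in N-IKKa mice and 173, 442 and 6424 in WT mice. Growing-hair libraries made up 3 of the 6 in N-IKKa and 2 of the 6 in WT, and the groups overlapped in every one of these genes. The log2 fold change was 1.48 for Tyr (SE 1.68), 0.93 for Dct (SE 1.05) and 2.32 for Slc45a2 (SE 1.84), each with a limma adjusted p of 0.880. Sox10 had 112, 176 and 222 in N-IKKa mice and 79.5, 127 and 171 in WT mice (log2 fold change 0.44, SE 0.21, limma adjusted p = 0.880). Of the 10 genes, Sox10 alone had an unadjusted p below 0.05, against 4.14% of tested genes. edgeR and DESeq2 called 0 of 10, against 0.00566% and 0.0113% of tested genes. By each tool 1 of 10 had an unadjusted p below 0.05, against 5.06% and 6.06%.

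N-IKKa against C-IKKa shares the N-IKKa libraries with the comparison before it and the C-IKKa libraries with the first. All 10 genes had positive values with a median of 1.43, and limma called 0, against 0.43% of tested genes. The log2 fold change was 1.82 for Tyr (SE 1.68), 1.33 for Dct (SE 1.05), 1.52 for Pmel (SE 0.82) and 0.72 for Kit (SE 0.46). Sox10 had 112, 176 and 222 normalized counts in N-IKKa mice and 86.5, 105 and 165 in C-IKKa mice (log2 fold change 0.55, SE 0.21, limma adjusted p = 0.380). Sox10 again stood alone below an unadjusted p of 0.05, here against 11.7% of tested genes. By edgeR 2 of 10 had an unadjusted p below 0.05, against 12.6% of tested genes, and by DESeq2 6 of 10, against 15.1%. Neither called any of the 10, while edgeR called 0.34% and DESeq2 1.06% of tested genes. Growing-hair libraries made up 3 of 6 in N-IKKa and 1 of 6 in C-IKKa. Libraries read as male made up 2 of 6 in N-IKKa and 4 of 6 in C-IKKa.

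The same contrasts among the 12 libraries without growing hair gave other values, and the sign of the median in both contrasts that hold C-IKKa depended on C-IKKa 18. The median of the 10 genes was 0.32 for C-IKKa against WT, 0.13 for N-IKKa against WT and −0.23 for N-IKKa against C-IKKa. Limma called 0 of 10 in each, while it called 0.923%, 0.0113% and 0.289% of tested genes. These fits hold 5 C-IKKa, 3 N-IKKa and 4 WT libraries, of which 4, 2 and 2 were read as male, so leaving out growing hair also changes the balance of sexes. The filter over all 18 libraries was kept, so Slc45a2 and Oca2 were tested here only through the growing-hair libraries left out. In C-IKKa against WT 2 of the 10 genes had an unadjusted p below 0.05, against 12.6% of tested genes. They were Slc45a2 (log2 fold change 1.92, limma adjusted p = 0.351) and Mitf (0.22, limma adjusted p = 0.367). Of these, Slc45a2 had 0.918 to 39.9 normalized counts in C-IKKa mice and 0 to 3.02 in WT mice, with C-IKKa 18 the highest and the WT values at the size of a few reads. With C-IKKa 18 left out as well, a choice made after its values were seen, the medians were −0.043, 0.13 and 0.089. In C-IKKa against WT 5 genes were then positive and 5 negative, and 0 of 10 had an unadjusted p below 0.05, against 11.1% of tested genes. With growing hair kept as a term in the fit of all 18 libraries, the medians were 0.08, 0.42 and 0.12. Limma then called 0 of 10, against 0.821%, 0.00566% and 0.696% of tested genes. Without that term the medians were −0.32, 0.998 and 1.43, and growing-hair libraries numbered 1 in C-IKKa, 3 in N-IKKa and 2 in WT. Libraries read as male numbered 4 in C-IKKa, 2 in N-IKKa and 2 in WT. With sex as the term instead, the medians were 0.21, 0.998 and 0.46, and limma called 0 of 10 in each contrast. Of 17667 tested genes it then called 65, 1 and 1 as higher and 0, 0 and 62 as lower.

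**Figure D4:**
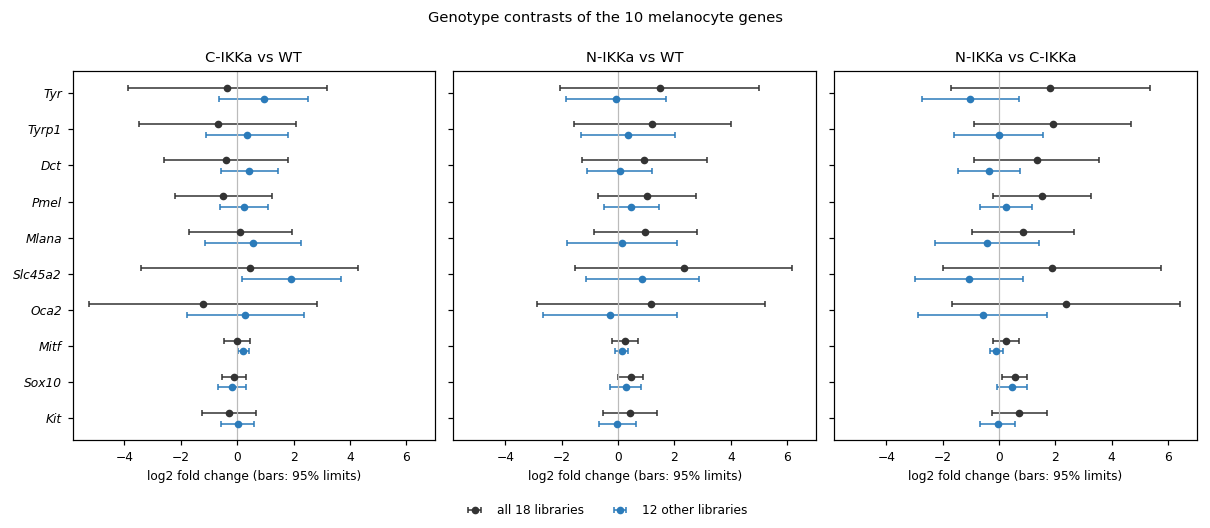
Log2 fold change of each of the 10 genes with 95% limits, for C-IKKa against WT (left), N-IKKa against WT (middle) and N-IKKa against C-IKKa (right), with all 18 libraries (black) and with the 12 libraries without growing hair (blue). With all libraries, limits exclude 0 for Sox10 alone, in both N-IKKa comparisons, and no gene was called after adjustment.

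Of the 62 tested genes of the 5 wider lists, limma called 0 in each of the 3 contrasts. Over all tested genes the shares called were 0.345%, 0.00566% and 0.43% in the order above. By limma 2, 1 and 6 of the 62 had an unadjusted p below 0.05, against 5.73%, 4.14% and 11.7% of all tested genes. edgeR called 0, against 0.311%, 0.00566% and 0.34% of all tested genes. DESeq2 called 0, 0 and 1 of the 62, against 0.838%, 0.0113% and 1.06% of all tested genes. The 1 was Rab32 among the melanosome biogenesis machinery, for N-IKKa against C-IKKa (log2 fold change −0.58, DESeq2 adjusted p = 0.0236). In C-IKKa against WT the 15 tested other pigment cell genes had a median log2 fold change of −0.16, with the smallest p for the transport gene Rab27a (0.28, SE 0.13, limma adjusted p = 0.855) and the endothelin receptor gene Ednrb (−0.53, SE 0.31, limma adjusted p = 0.979). The 19 machinery genes had a median of −0.03, and Rab32, a small GTPase that carries melanosome cargo, had the smallest p (0.41, SE 0.15, limma adjusted p = 0.595). The medians of the 6 signal genes, 10 mast cell markers and 12 Schwann cell markers were −0.23, −0.06 and 0.07. In N-IKKa against WT they were 0.16, −0.61 and −0.15, with 0.56 for the other pigment cell genes.

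Within each set, melanocyte genes were set against the hair list mean, a family of 40 relations (Pearson and Spearman for 10 genes in 2 sets). None had an adjusted permutation p below 0.05. In the 12 other libraries r was positive for all 10 genes, from 0.07 in Kit to 0.65 in Oca2 (rho 0.58, permutation p = 0.0109 for r and 0.0511 for rho, adjusted 0.437 and 0.622). For Kit rho was −0.10 in these 12 libraries. Without C-IKKa 18 and WT 6, the libraries farthest from the median, r ran from −0.33 in Kit to 0.37 in Mlana. It was then negative in Dct (−0.02), Kit, Slc45a2 (−0.08) and Oca2 (−0.12) and positive in the rest, with Tyrp1 at 0.005. The positive sign in all 10 genes and the value of Oca2 thus rest on those libraries. In the 6 growing-hair libraries r was largest for Mitf at 0.79 (rho 0.83, exact permutation p = 0.0778 and 0.0583, adjusted 0.622 for both). Sox10 was the 1 gene with a negative r in these 6, at −0.54. Without C-IKKa 14 and N-IKKa 9 few libraries are left. Then r was higher in every gene, at −0.07 in Sox10, 0.74 in Tyr, 0.86 in Oca2 and 0.95 in Mitf.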

How the data were processed

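The submitters' processing notes name featureCounts and the build GRCm39. Aligner, annotation release, strand setting and scaling tool are not given in the sources used here. Per the labels, the mRNA kit was a stranded one and reads were paired. The deposited signal of each gene is a normalized count. In every library 100% of values above 0 were whole multiples of that library's step within 0.01 reads, so they were read as counts over a size factor and reads were recovered by division (for WT 1 and 2 the step is so close to 1 that this says little).

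Main tests used limma 3.58.1 (R 4.3.3, mean-variance trend) on log2(normalized count + 1) for genes with at least 10 in at least 6 libraries, 17667 of 55357 genes, all 18 libraries, 15 residual degrees of freedom, two-sided, Benjamini-Hochberg within each contrast, called at adjusted p below 0.05. Fold changes are on that scale and understate changes of low genes. Each mouse is 1 library, per the labels. The fit was checked on data simulated from these libraries. For C-IKKa against WT it recovered 73% of 2-fold and 96% of 4-fold changes, with 3.98% of calls false. Changes were placed in genes of higher counts, and the simulation held no growing-hair or sex sets. It thus does not cover genes that split by such sets.

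Sex was read as male above 500 normalized counts of Ddx3y. The 10 genes, the lists and the growing-hair libraries were chosen with earlier results of these data known. Neighbours of Tyr, Dct, Sox10 and Kit were the 3 with the highest centred r, without numbered gene models. Of each list, called genes or else the 2 with the smallest p in C-IKKa against WT were to be named, and up to 4 whose sets did not overlap. Other genes named were chosen after their values were seen. Asip and Krt85 were not analysed here. Each result was also computed with a pseudocount of 0.5 or 5, without the filter, with a filter of 50, with TMM and median-of-ratios scaling, edgeR 4.0.16, DESeq2 1.42.0, hair list mean, hair set or sex as a term, leaving out the growing-hair libraries, and each library in turn. Leaving out C-IKKa 18 as well was added after the data were seen. Pmel has 6.06% of its exon length overlapped on the opposite strand in GENCODE vM21, the other 9 genes 0%.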

Additional observations from a re-analysis of the deposited data

Results flagged for a closer look

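Mitf in WT 4, at 4074 normalized counts, lay far from the other WT libraries: its gap to the next, divided by the range of the 6 on the log2 scale, was 0.679. It was the 1 of 30 gene groups (10 genes in 3 genotypes) so far apart. Chance sets apart about 1 in 20 where the values of a group come from 1 normal distribution. Each genotype group here mixes growing-hair and other libraries, and the 10 genes share libraries, so that rate may not hold. WT 4 is a growing-hair library and also had the highest hair list sum.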

How the results depend on the processing

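The 10 genes gave 30 log2 fold changes over 3 contrasts, each recomputed under 31 alternatives, and 0 were called in any of them; the smallest adjusted p was 0.174. No paired analysis was possible because the groups share no replicate numbers. Of the 30 values, none of which was called, 20 changed sign in some alternative. With edgeR, C-IKKa against WT gave Mlana −0.36 and Slc45a2 −1.01. With DESeq2, C-IKKa against WT gave Mlana −0.37 and Slc45a2 −1.03. With the hair list mean as a covariate, C-IKKa against WT gave Tyr 0.35, Dct 0.032 and Mitf 0.063. With the hair set as a term, C-IKKa against WT gave Tyr 0.65, Tyrp1 0.073, Dct 0.22 and Mitf 0.093, and N-IKKa against C-IKKa gave Tyr −0.16 and Slc45a2 −0.30. With sex as a term, C-IKKa against WT gave Tyr 1.13, Tyrp1 0.52, Dct 0.55, Pmel 0.14, Mitf 0.084, Kit 0.17 and Oca2 0.25. With the 6 growing-hair libraries left out, C-IKKa against WT gave Tyr 0.94, Tyrp1 0.35, Dct 0.42, Pmel 0.24, Mitf 0.22, Kit 0.013 and Oca2 0.29, N-IKKa against WT gave Tyr −0.072, Kit −0.036 and Oca2 −0.30, and N-IKKa against C-IKKa gave Tyr −1.01, Tyrp1 −0.013, Dct −0.36, Mlana −0.43, Mitf −0.094, Kit −0.048, Slc45a2 −1.06 and Oca2 −0.59. With C-IKKa 18 left out as well, C-IKKa against WT gave Tyr 0.30, Dct 0.026 and Mitf 0.23, N-IKKa against WT gave Tyr −0.072, Kit −0.036 and Oca2 −0.30, and N-IKKa against C-IKKa gave Tyr −0.37, Mlana −0.74, Mitf −0.10 and Slc45a2 −0.54. Leaving out 1 library, C-IKKa against WT ran over 0 in Tyr −1.03 to 0.60, Tyrp1 −1.27 to 0.12, Dct −0.82 to 0.27, Pmel −0.86 to 0.058, Mlana −0.40 to 0.51, Mitf −0.11 to 0.19, Slc45a2 −0.33 to 1.49. The causes of these changes were not tested. Over all tested genes, 61 were called for C-IKKa against WT, 1 for N-IKKa against WT and 76 for N-IKKa against C-IKKa. They were 38, 0 and 47 with a filter of 50, 148, 2 and 188 with DESeq2, and 2 in N-IKKa against WT with no filter. The first and the third contrast gave 168 and 158 with the hair list covariate and 145 and 123 with the hair set term. Without the growing-hair libraries, C-IKKa against WT gave 163 and N-IKKa against WT 2, and without C-IKKa 18 as well the 3 contrasts gave 101, 2 and 47. Leaving out 1 library they ran over 33 to 73, 1 to 2 and 39 to 103. Depth limits Oca2 and Slc45a2 outside growing hair, where most values are a few reads. TMM or median-of-ratios scaling and pseudocounts of 0.5 and 5 changed no sign.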
